A study of Mus musculus with 4 samples.

Results

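Within each of 4 single-cell libraries of green-fluorescent smooth muscle cells from the mouse ascending aorta and aortic arch, the 2% of cells richest in Vcam1, Timp1, Thbs1, Hbegf, Pdgfb and Lgals3 were taken as members. Cells were kept with at least 3000 UMIs (unique molecular identifiers, each standing for 1 captured transcript), at least 500 genes and at most 10% mitochondrial UMIs. They were ranked by how many of the 6 genes had a UMI, then by the summed UMIs of the 6 genes per 10000. This gave 260 members of 13049 kept cells, with 83 and 68 in the KO libraries and 46 and 63 in the WT libraries. The members were compared with the 9810 cells of the same libraries that had a UMI of none or 1 of the 6 genes, here called comparison cells, 3167 and 2594 of them KO and 1727 and 2322 WT. The other 2979 kept cells had 2 or more of the 6 genes without reaching the top 2% and entered neither group.

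The KO libraries came from C57BL/6J mice named Tgfbr1/2iSMCKO, which were Tgfbr1f/f and Tgfbr2f/f (both receptor genes floxed) and carried Myh11-CreERT2 together with the mT/mG reporter. The WT libraries came from mice named GFPiSMC, which carried the same Cre transgene and reporter without the floxed alleles. All mice were 12 weeks old and had received tamoxifen for 5 days, at 1 mg a day from 4 weeks of age or 2 mg a day from 11 weeks of age, and which course a given library had is not stated. The Cre enzyme acts where the Myh11 promoter is active, in smooth muscle, and the reporter changes there from tdTomato to eGFP. Cells were freed by digestion in the cold and sorted as single, viable and GFP-positive. How many mice each library holds is not given in the sources used here, so the p-values measure the spread between these libraries.

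Smooth muscle cells of the arterial wall are contractile at rest and can turn to an activated state in which they make adhesion molecules, growth factors and matrix. VCAM-1, the product of Vcam1, binds leukocytes and is a classical target of the transcription factor NF-κB. HB-EGF, from Hbegf, activates the EGF receptor, and PDGF-B, from Pdgfb, activates the PDGF receptor that smooth muscle carries. Thrombospondin-1, from Thbs1, is a matricellular protein that can release TGF-β from its latent complex. TIMP-1, from Timp1, inhibits metalloproteinases, and galectin-3, from Lgals3, is a lectin made by macrophages and by smooth muscle cells that have left the contractile state. In GRCm38 coordinates with GENCODE M21, Vcam1 lies on chromosome 3 at 116109949-116129688, Timp1 on X at 20870166-20874735, Thbs1 on 2 at 118111876-118127133, Pdgfb on 15 at 79995874-80014977 and Lgals3 on 14 at 47367751-47386160.

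The kept cells of a library held between 35044732 and 59037481 UMIs. The members' sums were 1540646 and 1330515 UMIs in KO and 995245 and 1264308 UMIs in WT, so a gene below a few CPM (UMIs scaled to a total of 1000000) rests on a handful of molecules. Members were deeper than comparison cells, with a median of 17977 and 19003.5 UMIs in KO and 20911 and 19109 in WT, against 13507 and 13937.5 in KO and 14386 and 14941 in WT. The rule itself favours deep cells, and the tests against comparison cells were therefore repeated with 5 comparison cells of the nearest depth per member. The median mitochondrial share was lower in members, at 3.45% and 3.27% in KO and 4.12% and 3.44% in WT, against 3.83% and 3.88% in KO and 4.71% and 3.93% in WT comparison cells. The 4 libraries shared 23 barcodes, 17 of them among kept cells and 0 among members. Over all kept cells Tgfbr1 stood at 73.3 and 76.1 CPM in KO against 80.7 and 82.1 CPM in WT, and Tgfbr2 at 46.6 and 47.4 against 51.8 and 45.2 CPM, with adjusted p = 0.212 and 0.75 (edgeR). Counts from 3′ ends were not located relative to the deleted parts of these genes, so these levels are no check of the labels.

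Most members carried the smooth muscle programme, while 20 of the 260 had little of it. The 11 smooth muscle markers summed to 53928 and 54734 CPM in KO and 47958 and 48058 CPM in WT members, with all 11 present in each library. Comparison cells of the 4 libraries lay between 55727 and 68314 CPM. Members with under 2% of their UMIs in these markers numbered 8 and 4 in KO and 3 and 5 in WT, or 9.64% and 5.88% of KO and 6.52% and 7.94% of WT members, against 1.23% and 1.503% of KO and 0.463% and 0.861% of WT comparison cells. In each KO library 1 member was an endothelial-rich cell, with 61 and 113 endothelial marker UMIs and smooth muscle shares of 0.137% and 0.108%. Endothelial markers, 12 in number, reached 114 and 158 CPM in KO and 78.4 and 89.4 CPM in WT members, against 63.5 and 64.2 CPM in KO and 87.8 and 82.7 CPM in WT comparison cells, and those 2 cells carried 34.7% and 53.8% of the KO members' endothelial UMIs. Macrophage markers, 13 in number, amounted to 3 to 6 UMIs per library in members, with Ptprc, Csf1r and Adgre1 at 0 in all 4. The 12 fibroblast markers summed to a higher level in members, at 1131 and 981 CPM in KO and 1340 and 1263 CPM in WT, against 849 and 788 CPM in KO and 1065 and 1063 CPM in WT, with 8 or 9 of the 12 detected and Dpep1 and Scara5 at 0. Col1a1, which smooth muscle also makes, carried most of the difference, at 479 and 357 CPM in KO and 848 and 805 CPM in WT members, against 278 and 244 CPM in KO and 548 and 536 CPM in WT comparison cells. Gsn, the other abundant marker, and Pdgfra were lower in members of all 4 libraries. Gsn stood at 498 and 479 CPM in KO and 463 and 429 CPM in WT members, against 548 and 512 CPM in KO and 504 and 511 CPM in WT comparison cells. Neither Gsn nor Pdgfra was called (adjusted p = 0.18 and 0.206, edgeR). Scarcer markers of the list were higher in KO 1 members than in KO 1 comparison cells. Dpt stood at 21.4 against 0.976 CPM, Pi16 at 5.19 against 0.558 CPM and Serpinf1 at 20.8 against 3.02 CPM. Lum stood at 54.5 against 8.83 CPM, Cd34 at 20.8 against 2.25 CPM and Ly6a at 24.7 against 0.0697 CPM. Clec3b was at 0 in KO 1 and KO 2 members. Pi16 and Ly6a were at 0 in WT 1 members, and Dpt in WT 2 members. The scarcer markers were not confined to KO 1. Dpt, Pi16, Serpinf1, Lum, Cd34 and Ly6a were all detected in KO 2 members. Serpinf1, Lum, Clec3b and Cd34 were detected in WT 1 and WT 2 members.

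The 6 genes describe how the members were chosen and get no test. Members with 3, 4, 5 and 6 of the genes numbered 23, 49, 9 and 2 in KO 1, 7, 46, 12 and 3 in KO 2, 9, 28, 7 and 2 in WT 1, and 17, 32, 11 and 3 in WT 2. At the threshold all cells had 3 genes, and the last member and the first cell outside stood at 10.65 and 10.51 UMIs per 10000 in KO 1, 12.57 and 12.21 in KO 2, 10.22 and 8.74 in WT 1, and 7.15 and 7.13 in WT 2. The boundary therefore runs through a continuous range of cells. When each cell was first thinned to 3000 UMIs, the same rule again chose 40 and 27 of the members in KO and 20 and 24 in WT, or 48.2% and 39.7% of KO and 43.5% and 38.1% of WT members.

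The adhesion molecule Vcam1 was detected in 78.3% and 72.1% of KO and 76.1% and 71.4% of WT members, at 473 and 457 CPM in KO and 552 and 636 CPM in WT. The inhibitor Timp1 was found in 71.1% and 83.8% of KO and 60.9% and 66.7% of WT members. In WT 2 a single member held 61.4% of the members' Timp1 UMIs. Thbs1 and the growth factors split by genotype. Thbs1 had a UMI in 53.01% and 55.9% of KO against 19.6% and 27.0% of WT members, while Pdgfb had one in 20.5% and 33.8% of KO against 63.0% and 58.7% of WT members. Hbegf was detected in 81.9% and 77.9% of KO and 97.8% and 93.7% of WT members, and Lgals3 in 83.1% and 92.6% of KO and 87.0% and 82.5% of WT members. The same rule thus picked cells through a different mix of genes in the 2 genotypes.

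The genotype differences in the mix were also present over all kept cells, where the rule plays no part. CPM values from here on share one scale over the sums compared, and log2 differences come from edgeR's quasi-likelihood test with Benjamini-Hochberg adjustment; a gene is called at an adjusted p under 0.05. Thbs1 stood at 15.8 and 15.8 CPM in KO against 3.52 and 3.69 CPM in WT (log2 2.13, SE 0.10, adjusted p = 8.89e-06). Hbegf fell to 32.6 and 32.0 CPM in KO, against 73.5 and 74.9 CPM in WT (log2 -1.20, SE 0.07, adjusted p = 1.98e-05), and Pdgfb to 2.68 and 3.42 against 7.06 and 8.64 CPM (log2 -1.37, SE 0.17, adjusted p = 0.001). For these 3 genes the libraries of the 2 genotypes did not overlap. Timp1 rose to 18.1 and 15.1 CPM in KO, against 9.08 and 12.5 CPM in WT (log2 0.61, SE 0.15, adjusted p = 0.0254), and lost its call without KO 1 (adjusted p = 0.15) or without WT 1 (0.0759). Vcam1, at 26.7 and 21.2 CPM in KO and 24.4 and 23.7 CPM in WT, overlapped between genotypes (log2 -0.01, SE 0.11, adjusted p = 0.977). Lgals3 stood at 52.2 and 54.3 CPM in KO and 48.0 and 40.2 CPM in WT (log2 0.27, SE 0.09, adjusted p = 0.0717) and was called without WT 1 (adjusted p = 0.0219). In the same fit 20.4% of 14466 genes were called, 9.22% higher and 11.2% lower in KO.

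Whether the 6 genes go together was examined by choosing cells with 5 of them and reading the level of the remaining one, after thinning every cell to 3000 UMIs. The gene read was at a higher level, in CPM, in the chosen cells than in cells with none of the other 5 genes in 23 of 24 pairs of gene and library. The exception was Thbs1 in WT 1, with 0 of 46 chosen cells, which allows a share of up to 7.71% (exact 95% interval), against 9 of 1695. Vcam1 had a UMI in 18.1% and 13.2% of the chosen cells in KO and 17.4% and 14.3% in WT, against 2.63% and 1.95% of the cells with none of the other genes in KO and 1.98% and 2.24% in WT. Its exact intervals did not overlap in any library. Pdgfb was found in 4.82% and 5.88% of chosen KO cells and 6.52% and 11.1% of chosen WT cells, against 0.325% and 0.467% in KO and 1.35% and 1.63% in WT. Hbegf showed a smaller contrast, and in KO 2 its share was 4.41% of chosen cells against 7.39%. The exact intervals did not overlap in 3 libraries for Thbs1 and Pdgfb, in 2 for Timp1 and Lgals3 and in 1 for Hbegf. Taken pair by pair over all kept cells, thinned alike, 7 of 15 pairs were found together more often than the product of their shares in every library, and 11 of 60 combinations of pair and library lay at or below that product, such as Timp1 with Hbegf in both KO libraries (0.87 and 0.81 times the product). Hemoglobin transcripts, which smooth muscle does not make and which measure free RNA, were at 0 in all members. Together with Alas2 they came to only 5 and 3 UMIs in KO and 8 and 6 in WT comparison cells, whose sums are far larger. The 0 in members therefore says little about free RNA. No other cell type was present in numbers that would show how many of these shares free RNA gives.

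**Figure D1:**
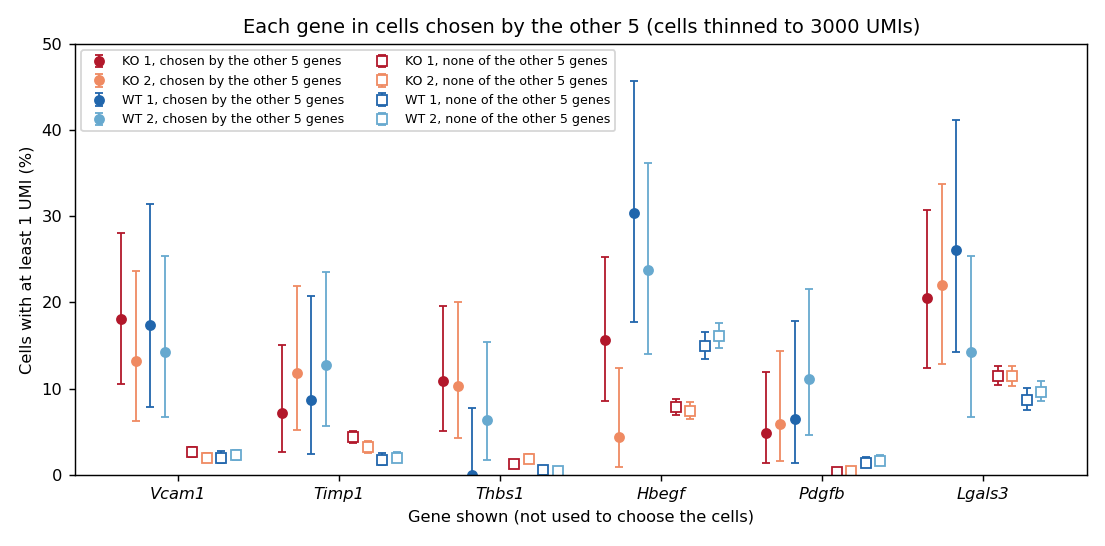
Percent of cells with at least 1 UMI of each gene after thinning to 3000 UMIs, in the 2% of cells chosen by the other 5 genes (filled circles) and in cells with none of those 5 (open squares), for 2 KO and 2 WT libraries; bars are exact 95% binomial intervals. Vcam1 lies between 13.2% and 18.1% in chosen cells of all 4 libraries, and Thbs1 is at 0 in the chosen cells of WT 1.

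Cells with 3 or more of the 6 genes were counted in each library on thinned cells, since the 2% rule fixes the number of members. They were 0.625% and 0.439% of kept KO cells (26 of 4162 and 15 of 3414) and 0.561% and 0.538% of kept WT cells (13 of 2316 and 17 of 3157). The KO and WT libraries overlapped, and the means differed by -0.0179 percentage points, KO minus WT (exact permutation test, two-sided, p = 1, where 0.333 is the smallest p that 2 against 2 allows). Without thinning the shares were 6.87% and 6.77% in KO and 6.56% and 7.60% in WT.

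Away from the 6 genes, genes of the modulated smooth muscle, collagen and elastic fibre and NF-κB lists rose in members and contractile genes fell. Of 12513 genes tested over the 8 sums, with the library as a term and the 6 genes left out, 15.7% were called (1968), 1156 of them higher in members (9.24%) and 812 lower (6.49%). Of 1841 called genes that could also be tested against depth-matched cells, 1409 were called there in the same direction, and 3 had the opposite sign. Of the tested genes 533 reached the expression filter (0.765 CPM in 4 sums) only with the help of member sums, and 87 of the 1156 higher ones are among them; for those the filter favours a rise. With members chosen anew on thinned cells, 1160 of 1965 were called in the same direction and 16 had the opposite sign. Since the cells were picked for 6 genes, these tests ask how steadily other genes went along with that choice across the 4 libraries.

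Emp1, a small membrane protein of the PMP22 family on chromosome 6 at 135362545-135383173, had the largest rise under the naming rule. It stood at 50.6 and 43.1 CPM in KO members and 41.2 and 20.4 CPM in WT members, against 1.03 and 2.00 CPM in KO and 2.70 and 2.37 CPM in WT comparison cells. Every member sum was far above every comparison sum, with a log2 difference of 4.31 (SE 0.31, adjusted p = 4.06e-09). Fxyd5, which encodes dysadherin, a regulator of the sodium pump and of cell adhesion, on chromosome 7 at 31032722-31042481, rose to a like extent in all 4 libraries, at 175 and 146 CPM in KO members and 207 and 158 CPM in WT members, against 17.6 and 16.5 CPM in KO and 21.0 and 22.3 CPM in WT comparison cells (log2 3.15, SE 0.09, adjusted p = 7.86e-15). Fibronectin, Fn1, on chromosome 1 at 71585520-71653200, the most abundant of the named rises, stood at 1229.9 and 1060.4 CPM in KO members and 1813 and 1697 CPM in WT members, against 224 and 267 CPM in KO and 427 and 403 CPM in WT comparison cells (log2 2.15, SE 0.06, adjusted p = 7.86e-15). The other matrix and matricellular genes among them were fibulin-2 (Fbln2, log2 4.12, SE 0.23), tenascin-C (Tnc, 2.21, SE 0.18), netrin-4 (Ntn4, 2.26, SE 0.14) and lumican (Lum). Lum passed the expression filter only with the help of member sums, so no test against comparison cells is given for it. Lumican's count in WT came from 1 member in each library, with 12 and 4 UMIs. Those cells were not removed.

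Among signalling genes, the urokinase receptor Plaur, at 51.9 and 62.1 CPM in KO members and 76.2 and 64.5 CPM in WT members, against 6.66 and 9.63 CPM in KO and 9.99 and 11.8 CPM in WT comparison cells, rose by log2 2.75 (SE 0.13, adjusted p = 1.2e-11). The EGF receptor ligand Ereg rose by 2.41 (SE 0.18) and the insulin-like growth factor binding protein Igfbp2 by 2.52 (SE 0.15). Ankrd1, a target of YAP, rose by 2.76 (SE 0.15), with 51.4% of its member UMIs of WT 1 in 1 cell.

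The nuclear receptor Nr4a1, an immediate early gene, had the largest fall under the naming rule, to 42.8 and 31.0 CPM in KO and 23.7 and 86.6 CPM in WT members, against 191 and 140.3 CPM in KO and 139 and 202 CPM in WT comparison cells (log2 -1.90, SE 0.14, adjusted p = 4.28e-09). Each member sum was below each comparison sum. The stress factor Atf3 also fell (log2 -1.30, SE 0.09). Ogn, the small leucine-rich proteoglycan osteoglycin, was the most abundant of the named falls, at 434 and 366 CPM in KO members and 588 and 619 CPM in WT members, against 874 and 858 CPM in KO and 1229 and 1175 CPM in WT comparison cells (log2 -1.05, SE 0.05, adjusted p = 2.29e-11). The remaining falls were the titin-binding Tcap (-1.64), the lipid droplet gene Cidea (-1.28), Tub (-1.27), Fibin (-1.26), the p53 target Trp53inp1 (-1.26), Selenbp1 (-1.12), the BMP-responsive Id4 (-1.07) and Gas1 (-1.07), with standard errors of 0.12 to 0.17.

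**Figure D2:**
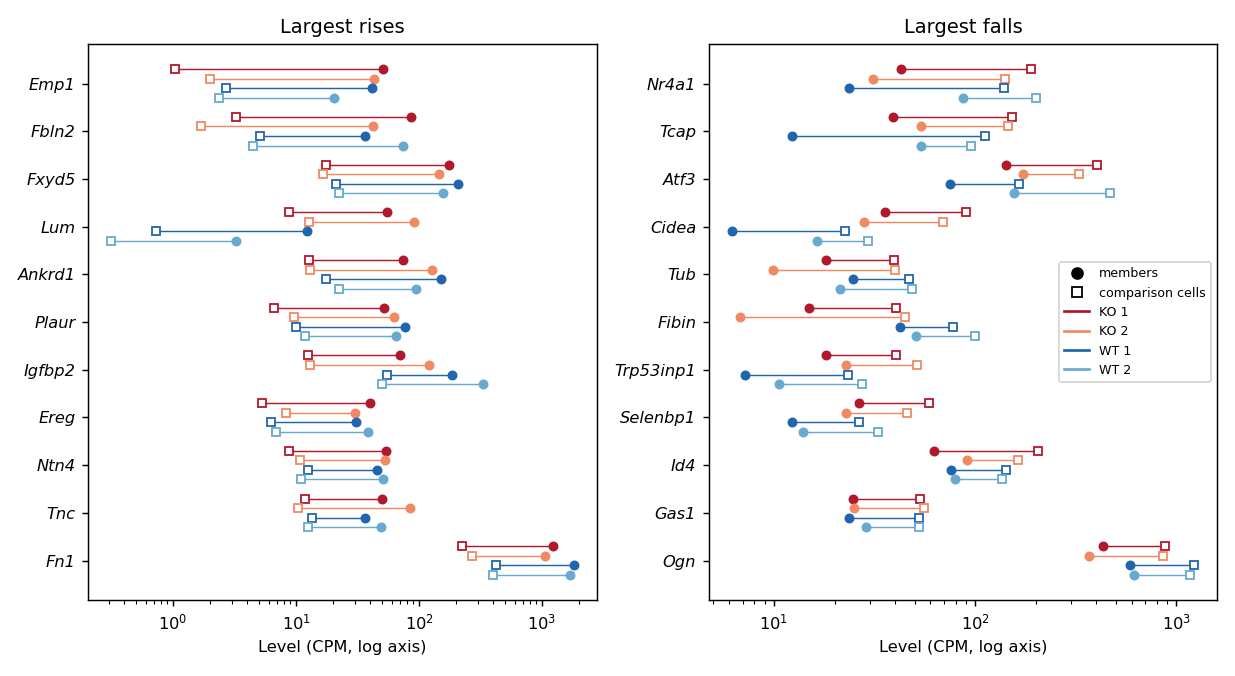
Level in CPM (log axis) of 11 of the largest rises and 11 of the largest falls in members (filled circles) and comparison cells (open squares), joined by a line per library (2 KO, 2 WT). The lines of a gene run in the same direction in all 4 libraries because the naming rule required it. The smallest contrast of a rise shown is Tnc in WT 1, at 36.0 CPM in members and 13.4 CPM in comparison cells.

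Leukocyte adhesion and chemokine genes were little represented beyond Vcam1. Of 24 listed, 9 could be tested, and 5 rose (the median log2 difference of the tested genes was 0.82, against -0.01 for all tested genes). Cx3cl1, a membrane-bound chemokine, stood at 37.6 and 33.3 CPM in KO members and 21.6 and 12.3 CPM in WT members, against 7.41 and 5.16 CPM in KO and 1.13 and 1.06 CPM in WT comparison cells (log2 2.94, SE 0.27, adjusted p = 1.32e-07). The chemokine Cxcl12 (log2 0.79), the growth factor Csf1 (0.82) and the receptor Il1r1 (0.91) also rose. The call of Icam2, an endothelial adhesion molecule, rested on 5 and 16 UMIs in KO and 0 and 2 in WT members. A single member held 100% and 87.5% of those in KO, and Icam2 passed the expression filter only with the help of member sums. Without the endothelial-rich cells 4 of 8 tested genes rose. The genes of the cytokines Il6 and Il1b and of the chemokine Ccl2 had no UMI in members.

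The NF-κB list rose without exception among its called genes: 12 of 21 tested were higher and none lower, with a median log2 difference of 0.60. Against depth-matched cells 9 of 18 were higher and none lower. Of the 12, Bcl3, Nfkbie and Traf1 passed the expression filter only with member sums. Nfkb2, which encodes the p52 subunit, stood at 53.2 and 50.7 CPM in KO members and 31.9 and 44.1 CPM in WT members, against 14.5 and 13.4 CPM in KO and 10.6 and 9.43 CPM in WT comparison cells (log2 1.92, SE 0.13, adjusted p = 3.63e-09). Relb, its partner, rose by 1.28 (SE 0.12) and Rela by 0.41 (SE 0.09). Nfkbia, the inhibitor that NF-κB itself induces, stood at 259 and 180.1 CPM in KO members and 184 and 224 CPM in WT members, against 71.2 and 65.5 CPM in KO and 75.3 and 73.0 CPM in WT comparison cells (log2 1.58, SE 0.08, adjusted p = 5.12e-11). The survival gene Birc3 (1.64) and the feedback inhibitor Tnfaip3 (2.34, on 7, 9, 6, 10 member UMIs in KO 1, KO 2, WT 1 and WT 2) rose too. The share of called genes reads against the background of 15.7% over all tested genes, which includes many of low count.

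The promoters of these genes, from RefSeq on GRCm38.p6 (250 bases before to 50 after the start of transcription), were searched on both strands for the κB consensus, which occurs in a window of 9.55% of 27025 genes (8.46% of all 32851 windows), and for the AP-1 sequence TGANTCA, which occurs in 8.97% of genes (7.81% of windows). Of the 12 NF-κB list genes that rose, 10 had a window, and the κB consensus occurred in 5 of them (Nfkb2, Nfkbia, Nfkbie, Tnfaip3 and Bcl3). It occurred in 10 of the 19 genes of the whole list with a window, so the genes that rose did not stand out in the list. Of the 11 rises described above, 8 had a window, and the κB consensus occurred in 0 and the AP-1 sequence in 3 (Emp1, Plaur and Igfbp2). A match is a run of letters, not a shown binding site. The windows below were picked after the values and the matches were known, to show where the sequences lie; capitals mark the match (κB in Nfkbia and Nfkb2, AP-1 in Plaur and Emp1). They are the regions chr12:55492598-55492897 (minus strand), chr19:46304487-46304786, chr7:24462233-24462532 and chr6:135362681-135362980 (plus strand), in the order of the lines. Relative to the start of transcription the matches begin at -29 in Nfkbia, at -39 (the first of 2 overlapping ones) and -11 in Nfkb2, at -69 in Plaur, and at -145 and -25 in Emp1.
Nfkbia: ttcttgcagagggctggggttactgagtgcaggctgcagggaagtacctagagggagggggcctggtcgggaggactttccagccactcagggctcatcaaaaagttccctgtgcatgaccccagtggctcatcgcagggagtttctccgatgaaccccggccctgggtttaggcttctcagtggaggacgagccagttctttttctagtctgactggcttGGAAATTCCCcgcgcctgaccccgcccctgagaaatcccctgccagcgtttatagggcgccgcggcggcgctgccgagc
Nfkb2: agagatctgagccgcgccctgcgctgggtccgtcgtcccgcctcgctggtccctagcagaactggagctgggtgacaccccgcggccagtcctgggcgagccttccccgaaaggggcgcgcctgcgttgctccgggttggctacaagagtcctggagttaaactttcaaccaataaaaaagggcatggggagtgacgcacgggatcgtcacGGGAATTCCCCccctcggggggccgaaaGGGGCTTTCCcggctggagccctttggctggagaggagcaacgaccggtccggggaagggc
Plaur: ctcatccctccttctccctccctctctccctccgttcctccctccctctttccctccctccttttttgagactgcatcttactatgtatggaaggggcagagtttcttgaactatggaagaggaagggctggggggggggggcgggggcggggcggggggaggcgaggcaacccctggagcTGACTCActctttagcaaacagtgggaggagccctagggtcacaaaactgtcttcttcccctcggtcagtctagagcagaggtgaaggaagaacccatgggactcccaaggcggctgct
Emp1: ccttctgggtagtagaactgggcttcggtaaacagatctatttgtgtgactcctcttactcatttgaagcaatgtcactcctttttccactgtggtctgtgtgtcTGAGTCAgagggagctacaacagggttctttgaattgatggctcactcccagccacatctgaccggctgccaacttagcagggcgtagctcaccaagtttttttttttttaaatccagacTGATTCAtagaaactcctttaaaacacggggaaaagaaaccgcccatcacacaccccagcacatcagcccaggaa

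Growth factor genes rose in smaller number. Of 20 EGF family genes 13 were tested and 5 rose (median log2 0.54), or 3 of 13 against depth-matched cells. The 5 were the ligand Ereg and the feedback inhibitors Dusp5 (2.12), Spry4 (1.24), Spry2 (0.59) and Errfi1 (0.38). These feedback genes are induced by the kinase cascade below the receptor. The receptor gene itself, Egfr, stood at 20.7 and 22.7 CPM in KO members and 12.4 and 17.2 CPM in WT members, against 16.6 and 20.1 CPM in KO and 12.4 and 14.1 CPM in WT comparison cells and was not called (adjusted p = 0.418). Of the 13 genes of the PDGF list 5 rose and 1 fell (median log2 0.25). Besides PDGF ligands and receptors the list holds other genes, among them VEGF genes and the plasminogen activator gene Plat. Pdgfa, another PDGF ligand, rose by 0.62 (SE 0.07), while Pdgfd fell by 0.59 (SE 0.10) on the log2 scale. The receptor gene Pdgfrb rose by 0.25 (SE 0.08, adjusted p = 0.0292).

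Of the thrombospondins, matricellular proteins and their receptors, 8 of 16 tested rose and none fell (median log2 0.19). Thbs2, the nearest relative of Thbs1, stood at 12.3 and 15.9 CPM in KO members and 34.0 and 31.9 CPM in WT members, against 14.003 and 13.4 CPM in KO and 29.7 and 31.0 CPM in WT comparison cells and was not called (adjusted p = 0.788). Of the metalloproteinases, TIMPs and plasminogen genes, 8 of 16 rose and none fell (median log2 0.21). Among these 8, 1 passed the expression filter only with the help of member sums. The inhibitor Timp2 stood at 587 and 479 CPM in KO members and 547 and 555 CPM in WT members, against 337 and 343 CPM in KO and 398 and 404 CPM in WT comparison cells (log2 0.55, SE 0.06), and Timp3 rose by 0.22 (SE 0.05). The gelatinase Mmp2 rose by 1.33 (SE 0.20). The plasminogen activator Plat, which was counted in the PDGF list and not among these 8, rose by 0.68 (SE 0.10).

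The list of galectins and modulated smooth muscle genes, which holds genes known from smooth muscle cells that leave the contractile state, rose nearly as a whole: 18 of 20 tested were higher and 1 lower, with a median log2 difference of 1.23. Of the 18, Lgals9 and Lum passed the expression filter only with the help of member sums. The calcium-binding S100a4 stood at 978 and 933 CPM in KO members and 1085 and 786 CPM in WT members, against 289.6 and 277 CPM in KO and 323 and 291 CPM in WT comparison cells (log2 1.67, SE 0.06, adjusted p = 9.05e-14). Annexin A1, Anxa1, stood at 903 and 749 CPM in KO members and 852 and 713 CPM in WT members, against 203 and 222 CPM in KO and 229 and 223 CPM in WT comparison cells (log2 1.87, SE 0.07, adjusted p = 1.15e-13). The groups did not overlap for either gene. The hyaluronan receptor Cd44 rose by 1.63 (SE 0.10), S100a6 by 1.02 (SE 0.05) and galectin-1, Lgals1, by 0.70 (SE 0.04). The summed fibroblast markers given above were higher too, and Lum and Ly6a stand in both lists; their part in this result was not tested. Summed over the list, 48.2% and 42.6% of KO members and 58.7% and 36.5% of WT members exceeded the 95th percentile of the comparison cells of their library.

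Contractile genes fell in members: 13 of 24 were lower and 1 higher (median log2 -0.22), and 15 of 23 were lower against depth-matched cells. The regulatory light chain Myl9 stood at 3936 and 3608 CPM in KO members and 3005 and 3156 CPM in WT members, against 5763 and 5089 CPM in KO and 4225 and 4411 CPM in WT comparison cells (log2 -0.51, SE 0.03, adjusted p = 6.59e-10). The smooth muscle myosin gene Myh11 fell by 0.45 (SE 0.03) and α-actin, Acta2, by 0.20 (SE 0.03) on the log2 scale, while Tagln (log2 -0.03, adjusted p = 0.572) was not called. The exception was Mustn1, which rose to 1469.8 and 1577 CPM in KO and 1118 and 774 CPM in WT members, against 1002 and 866 CPM in KO and 434 and 427 CPM in WT comparison cells (log2 0.90, SE 0.08). With cells of under 2% smooth muscle marker UMIs left out, 13 of 24 were lower and 3 higher.

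Collagen and elastic fibre genes rose, 17 of 24 with none lower (median log2 0.39), and 14 of 24 against depth-matched cells. Of the 17, Col8a1 passed the expression filter only with the help of member sums. Col1a1, a fibrillar collagen chain, stood at 478 and 359.5 CPM in KO members and 869 and 832 CPM in WT members, against 273 and 238 CPM in KO and 543 and 529.9 CPM in WT comparison cells (log2 0.68, SE 0.05, adjusted p = 8.77e-09). Col15a1, a collagen of the basement membrane zone, rose on a level that differed widely by genotype, at 8.43 and 9.08 CPM in KO members and 641 and 491 CPM in WT members, against 4.60 and 4.31 CPM in KO and 249 and 275 CPM in WT comparison cells (log2 1.08, SE 0.10). Of the TGF-β target genes 9 of 17 rose and 1, Nox4, fell (median log2 0.36). The ligand Tgfb1 stood at 57.1 and 40.1 CPM in KO members and 61.8 and 69.4 CPM in WT members, against 18.9 and 14.6 CPM in KO and 25.4 and 22.3 CPM in WT comparison cells (log2 1.5, SE 0.11, adjusted p = 6.4e-09).

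Immediate early genes, which respond within minutes to growth factors and also to tissue digestion, moved in both directions: 13 of 26 rose and 7 fell (median log2 0.23). Fosl1, a subunit of AP-1, stood at 23.99 and 32.5 CPM in KO members and 12.4 and 17.2 CPM in WT members, against 0.229 and 0.319 CPM in KO and 0.362 and 0.172 CPM in WT comparison cells. Fosl1, Egr2 and Myc passed the expression filter only with the help of member sums, so no test is given for them. All of these are among the 13 that rose. Junb rose by 1.82 (SE 0.09) and Egr1 by 1.30 (SE 0.09). Jun, at 504 and 341 CPM in KO members and 467 and 539 CPM in WT members, against 698 and 436 CPM in KO and 758 and 837 CPM in WT comparison cells, fell by 0.54 (SE 0.06) on the log2 scale. Nr4a2, a relative of Nr4a1, fell by 0.98 (SE 0.20, adjusted p = 0.00176), and Nr4a3 was not called (log2 -0.60, adjusted p = 0.116). The heat shock genes, a sign of stress during dissociation, had 2 of 13 higher and 1 lower (median log2 0.01), or 1 higher and 2 lower against depth-matched cells.

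Of the other lists, ribosome biogenesis and growth genes had 13 of 18 higher and none lower (median log2 0.42). Of those 13, Myc passed the expression filter only with the help of member sums. Endoplasmic reticulum stress genes had 9 of 18 higher and none lower (0.26). The p53 and senescence list had 7 of 15 higher and 2 lower, the NRF2 and metal response list 7 of 15 and 1 (4 and none with members chosen after thinning), the interferon-stimulated list 6 of 21 and 1, the glycolysis and hypoxia list 4 of 19 and 3, and the actin, SRF and YAP list 8 of 22 and 5. In the p53 and senescence list, 1 of the 7 that rose passed the expression filter only with the help of member sums. Cell cycle genes had 5 of 12 higher and none lower, and 2 of 8 against depth-matched cells. Of the 13 mitochondrial transcripts 7 were lower and none higher (median log2 -0.14), 4 against depth-matched cells and 10 with members chosen after thinning, beside the lower mitochondrial share of members. The plot of gene lists sets these shares against those of all tested genes.

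**Figure D3:**
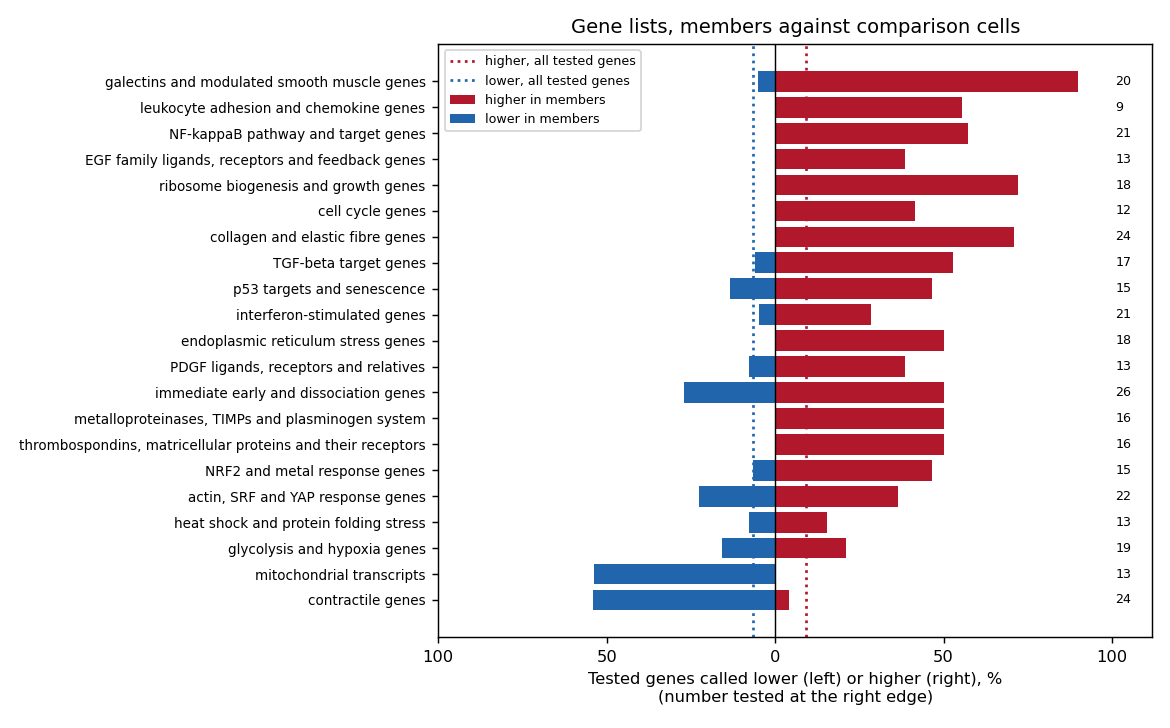
Share of the tested genes of each list called higher (right) or lower (left) in members than in comparison cells, in percent, with the number of genes tested at the right edge; dotted lines mark the shares over all tested genes, 9.24% higher and 6.49% lower. Galectins and modulated smooth muscle genes reach 90.0% higher, and contractile genes and mitochondrial transcripts are the lists that mostly go lower.

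Over all kept cells, the mean level of 9 of the 11 named rises went up at every step in the number of the 6 genes detected, and that of 9 of the 11 named falls went down at every step. Cells with none or 1 of the 6 genes are the comparison cells, and all cells with 4 or more are members. The named genes were chosen for a difference between those groups, so the contrast between the ends was fixed by that choice. Igfbp2 and Lum were lower with 5 or 6 genes than with 4, and Cidea and Trp53inp1 each had a step upwards. Within single libraries the steps were less regular, with 27 of 44 lines of rises and 22 of 44 lines of falls moving one way throughout. The contractile gene Acta2 was at 23173 CPM with none of the genes, 24427 CPM with 1 and 17991 CPM with 5 or 6. Fxyd5 averaged 16.9 ± 3.41 CPM (SD over the 4 libraries) in cells with none of the genes, 21.9 ± 1.93 with 1, 40.1 ± 5.91 with 2, 80.1 ± 8.72 with 3, 127 ± 26.6 with 4 and 256 ± 27.2 with 5 or 6. Plaur averaged 8.36 ± 2.70, 10.8 ± 1.75, 16.1 ± 4.35, 23.2 ± 4.37, 50.4 ± 9.81 and 100.4 ± 16.4 CPM in the same classes. Myl9 averaged 5006 ± 716 CPM with none of the genes and 2925 ± 238 CPM with 5 or 6. The more of the genes a cell shows, the deeper it tends to be, and the part of depth in these steps was not tested.

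**Figure D4:**
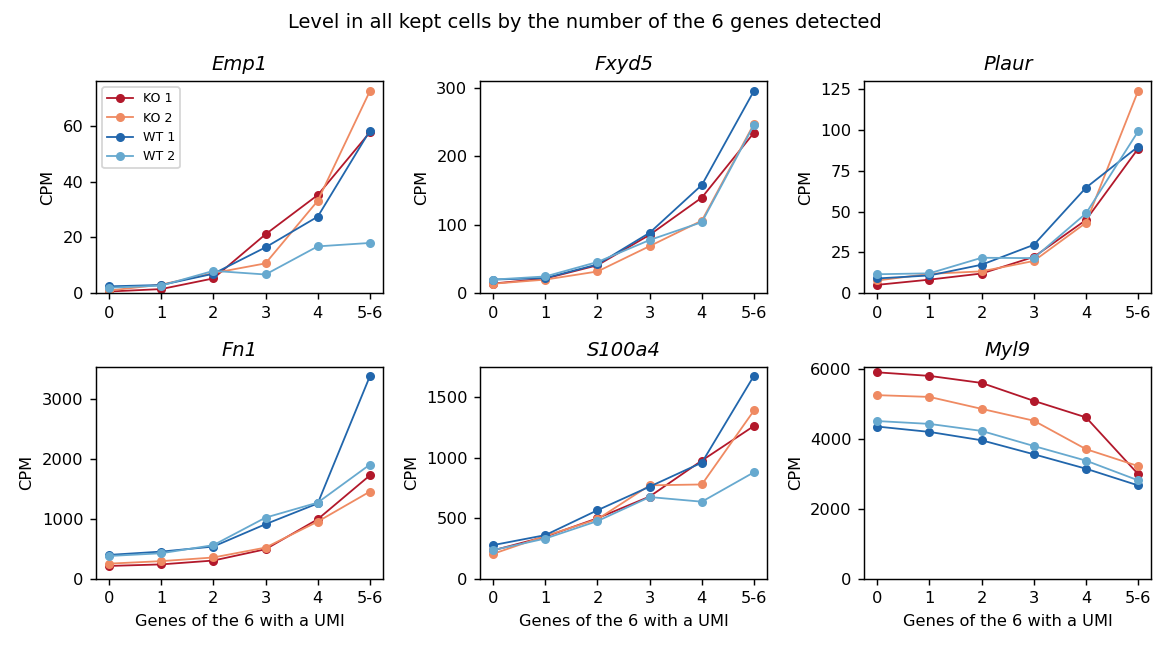
Level in CPM of 6 genes in all kept cells grouped by the number of the 6 rule genes with a UMI, 1 line per library (2 KO, 2 WT). Fxyd5 climbs in every library to between 235 and 296 CPM in cells with 5 or 6 of the genes, and Myl9 declines in every library.

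Many matrix and TGF-β target genes were lower in KO members than in WT members. Of 8849 genes tested over the 4 member sums, with the 6 genes left out, 4.19% were called (371), 138 higher in KO (1.56%) and 233 lower (2.63%). Over all kept cells the same genotype comparison called 20.4%, on sums that hold far more cells. The members are part of the kept cells, so the 2 comparisons share samples, and values from both are given side by side below as description.

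Col15a1 fell to 8.43 and 9.08 CPM in KO members, against 641 and 491 CPM in WT members (log2 -6.0, SE 0.21, adjusted p = 1.81e-09; -5.98 over all kept cells). Tropoelastin, Eln, stood at 643 and 381 CPM in KO members, against 3427 and 3999 CPM in WT members (log2 -2.86, SE 0.18, adjusted p = 4.76e-07; -3.29 over all kept cells). Mfap4, a microfibril protein, stood at 73.3 and 54.5 CPM in KO members, against 872 and 927 CPM in WT members (log2 -3.81, SE 0.14, adjusted p = 1.81e-09; -4.22). In all 3 the KO members were far below the WT members. The lack of overlap was required by the naming rule for the 10 largest falls. The TGF-β feedback gene Pmepa1 stood at 228 and 192 CPM in KO members, against 1452 and 1445 CPM in WT members (log2 -2.78, SE 0.11), and Nupr1, a stress-induced chromatin protein, at 233 and 156 CPM in KO members, against 1166 and 1513 CPM in WT members (log2 -2.78, SE 0.17). Ptgs2, the inducible cyclooxygenase, had 7.13 and 2.27 CPM in KO members, against 39.1 and 62.9 CPM in WT members (log2 -3.39, and -1.95 over all kept cells). Among the member sums Ptgs2 passed the expression filter only with the help of the WT sums, so no test between members is given for it. The same holds for the gene model AA465934. AA465934 had no UMI in KO members, against 91 and 82 UMIs in WT members, which makes it at least 73.3-fold lower in KO when 3 counts over both libraries are taken as the floor. Gm8797 (log2 -4.02), the proprotein convertase Pcsk5 (-2.45) and aggrecan, Acan (-2.41), complete the 10 largest falls.

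The largest rises in KO members by the naming rule were the small proteoglycans Lum and Dcn. Lum stood at 54.5 and 90.8 CPM in KO members, against 12.4 and 3.27 CPM in WT members (log2 3.28), and Dcn at 163 and 183 CPM in KO members, against 4.12 and 29.4 CPM in WT members (log2 3.25). Both genes passed the expression filter only with the help of the KO sums. For them the filter favours a rise, so no p-value is given for their rise. In KO 2 a single member held 59.2% of the Lum UMIs and 71.5% of the Dcn UMIs. With cells that carried markers of other cell types removed, Dcn was not called (log2 1.31, adjusted p = 0.421), nor was it with DESeq2 (adjusted p = 0.0951). Itih4, a heavy chain of the inter-α-trypsin inhibitor family, was spread over many cells, at 641 and 637 CPM in KO members, against 94.7 and 93.9 CPM in WT members (log2 2.76, SE 0.12, adjusted p = 8.18e-09). The interferon-inducible Ifitm3 stood at 724 and 621 CPM in KO members, against 198 and 221 CPM in WT members (log2 1.68, SE 0.12, adjusted p = 1.67e-06). The centromere histone chaperone Hjurp (log2 2.86), the membrane proteins Tmem176b (2.16) and Tmem176a (1.51), the lectin Clec2d (1.96), the sialic acid enzyme Gne (1.82) and the transcription factor Cebpd (1.62) were the other rises, with standard errors of 0.17 to 0.35.

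By list, 13 of 24 collagen and elastic fibre genes were lower in KO members and none higher (median log2 -0.63), and 8 of 17 TGF-β target genes were lower and 1 higher (-0.84). The thrombospondin and matricellular list had 9 of 15 lower and 1 higher. Of the contractile genes 6 of 23 were higher and 2 lower, and of the NRF2 and metal response genes 4 of 12 were higher. None of 17 NF-κB genes and none of 11 EGF family genes was called between KO and WT members by edgeR or by DESeq2. With edgeR 3 NF-κB genes and 1 EGF family gene had an unadjusted p under 0.05. Over all genes tested in members edgeR called 4.19%, and lists this short can hold no call at that share. Over all kept cells 5 of 23 NF-κB genes were higher in KO and 1 lower. There 3 of 15 EGF family genes were higher and 1 lower, against 20.4% called of all tested genes. Vcam1 and Lgals3 in members were used by the rule and have no test here.

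Whether the difference between members and comparison cells itself depended on genotype was tested as an interaction over the 8 sums. Of 13257 genes 0.490% were called (65), 47 with a more positive difference in KO (0.355%) and 18 with a more negative one (0.136%). In 6 of the 65 a sum stood at 0, and in 12 a single member held over 50% of a library's member UMIs. DESeq2 called 16, and 880 genes had an unadjusted p under 0.05 with edgeR. For most genes the difference between members and comparison cells was therefore not resolved between genotypes at this number of libraries.

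Ccn1, Klf2 and Ccn2, among the genes with the smallest p, kept their direction and their call under each of the 16 alternatives tried. Ccn1, a matricellular target of YAP, stood at 408 and 391 CPM in KO members and 654 and 644 CPM in WT members, against 318 and 288 CPM in KO and 1059 and 1066 CPM in WT comparison cells (difference of log2 differences, KO minus WT, 1.12, SE 0.09, adjusted p = 9.74e-10), so members were above comparison cells in both KO libraries and below them in both WT libraries. Its relative Ccn2 stood at 637 and 1059 CPM in KO members and 3453 and 3239.6 CPM in WT members, against 319 and 515 CPM in KO and 2413 and 2755 CPM in WT comparison cells (0.65, SE 0.08, adjusted p = 1.28e-05) and was higher in members of all 4 libraries. The transcription factor Klf2 stood at 124 and 111 CPM in KO members and 90.6 and 160.1 CPM in WT members, against 29.8 and 26.3 CPM in KO and 148 and 121 CPM in WT comparison cells (2.14, SE 0.20, adjusted p = 8e-09), higher in members in both KO libraries and in WT 2 and lower in WT 1. For Ccn1, Ccn2 and Klf2 the KO comparison cells were far below the WT comparison cells, while the members of the 2 genotypes lay closer together on the log scale. By list, 6 of 26 immediate early genes had a more positive difference in KO and none a more negative one. Over all tested genes these shares were 0.355% and 0.136%. The list was counted in the main fit only, and not under the alternatives.

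**Figure D5:**
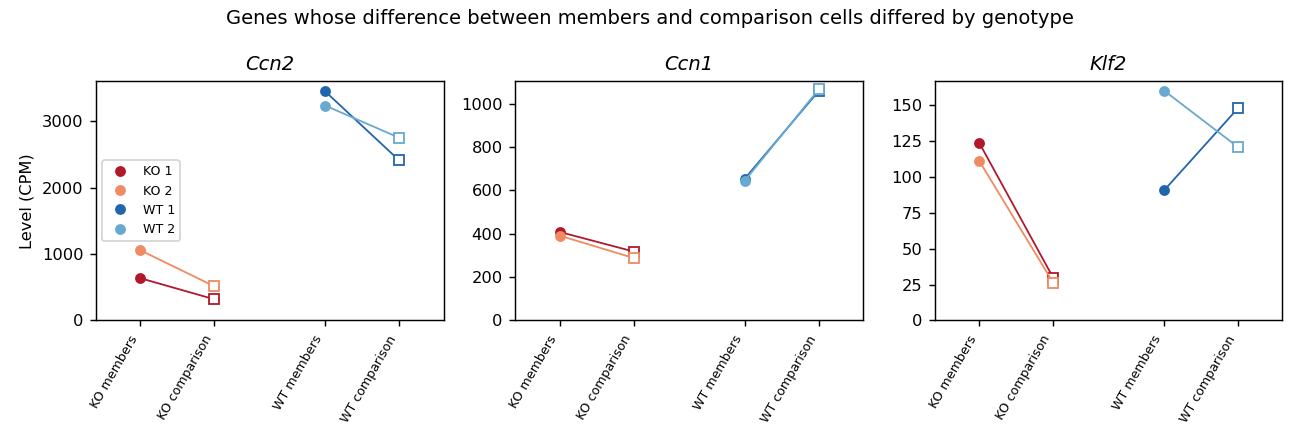
Level in CPM of Ccn2, Ccn1 and Klf2, whose difference differed by genotype in the contrast of members (filled circles) with comparison cells (open squares), a line per library, KO on the left and WT on the right. Ccn1 slopes in opposite directions in KO and WT, and Klf2 is at 124 and 111 CPM in KO members, against 29.8 and 26.3 CPM in KO comparison cells.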

How the data were processed

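The authors deposited raw UMI counts by gene and barcode, which Cell Ranger 5.0.1 produced per the file headers. Per the submitters' processing notes the build is mm10 and Seurat 4.0 was used. The criteria by which the submitters reduced 14100 cells to 12428 are not stated in the labels; the matrices hold 14696 barcodes. Libraries were prepared with Chromium 3′ v3.1 chemistry per the labels' protocols, and replicates were not pooled in the files.

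The members, the gene lists and the tests were chosen with earlier results of these data known. Counts were summed over members and over comparison cells of each library. The sums were compared with edgeR 4.0.16 (R 4.3.3): TMM scaling, edgeR's expression filter, the quasi-likelihood test, and Benjamini-Hochberg adjustment over all tested genes with a threshold of 0.05. Members against comparison cells used 8 sums with the library as a term; KO against WT used the 4 sums of members or of all kept cells; the genotype difference of that contrast used an interaction term with the library as a term. The 6 genes of the rule were left out of the tests on members. CPM are counts scaled to a total of 1000000 on the common TMM scale of the 8 sums, or of the 4 sums over all kept cells. The test script was tested on simulated data. Intervals are exact 95% binomial ones and, like the floor of 3 counts, cover counting error only. Thinning drew 3000 UMIs per cell without replacement (seed 1, numpy 2.4.6).

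Named genes were the 6 genes, Tgfbr1, Tgfbr2 and Myh11; the 12 largest rises and falls in members among genes called also against depth-matched cells, averaging 20 CPM or more and going the same way in all 4 libraries; 2 genes of each list with the smallest p; the 10 largest rises and falls between KO and WT members without overlap; and the 5 smallest p of the interaction. A few genes picked by these criteria were left out of the text. Any other gene named was picked with its values in view. No doublet was removed in the reported values: Scrublet (scanpy 1.11.5) at its automatic threshold marked 7 comparison cells and 0 members, too few to be of use, and an alternative removed the 444 cells of highest score instead. The median doublet score was lower in members, between 0.0584 and 0.125 over the libraries, against 0.123 to 0.142 in comparison cells. The cut of that removal was reached by 1.20% and 2.94% of KO and 8.70% and 6.35% of WT members. Among comparison cells 5.78% and 3.93% in KO and 5.15% and 5.47% in WT reached it. More than 2 times the library's median UMIs were held by 25 of the 260 members and 34 of the 9810 comparison cells. Alternatives were DESeq2 1.42.0, no expression filter, no library term, each library left out, the replicate number as a block, depth-matched comparison cells, members chosen on thinned cells, the top 1% or 5%, at least 5000 UMIs per cell, and removal of doublets or of cells with markers of other types. Removal of cells low in smooth muscle markers or high in endothelial markers was added after the data were seen.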

Additional observations from a re-analysis of the deposited data

Results flagged for a closer look

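In 9 of the named genes the difference between members and comparison cells itself differed between KO and WT in the interaction test (edgeR, adjusted p under 0.05); values are KO minus WT on the log2 scale. Of matricellular and matrix genes, Ccn2 differed by 0.65 (SE 0.08, adjusted p = 1.28e-05), Ccn1 by 1.12 (SE 0.09, adjusted p = 9.74e-10), Eln by 0.53 (SE 0.08, adjusted p = 0.000571) and Dcn by 2.12 (SE 0.35, adjusted p = 0.000767). Of transcription regulators, Klf2 differed by 2.14 (SE 0.20, adjusted p = 8e-09), Nupr1 by 0.78 (SE 0.13, adjusted p = 0.000691) and Cebpd by 0.94 (SE 0.21, adjusted p = 0.0246). Gne differed by 0.82 (SE 0.18, adjusted p = 0.0243).

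The difference was more negative in KO for Mcm6, a subunit of the replicative helicase, by -0.99 (SE 0.23, adjusted p = 0.0349), at 28.5 and 21.9 CPM in KO members and 65.9 and 65.3 CPM in WT members, against 21.5 and 23.3 CPM in KO and 30.0 and 28.0 CPM in WT comparison cells. The members of both WT libraries were above all other sums of this gene.

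Dcn, Mcm6, Gne, Cebpd, Eln and Nupr1 lost the call against depth-matched comparison cells (adjusted p of 0.113 to 0.812) and with cells carrying markers of other types removed (0.114 to 0.994), while Ccn2, Ccn1 and Klf2 kept it under all 16 alternatives. For Dcn the difference was 0.28 with cells of other types removed and 0.77 with cells low in smooth muscle markers removed.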

How the results depend on the processing

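Among 97 results on single genes, 1382 of 1457 values under alternatives kept their direction and call, 69 lost the call, 3 gained one and 3 turned round: Vcam1 between KO and WT over all kept cells (-0.18 to 0.15 with a library left out, above 0 without KO replicate 2 at 0.15 and without WT replicate 1 at 0.01) and Tgfbr2 in the same comparison (-0.14 to 0.053, above 0 without WT replicate 1); the cause was not tested. Of the lost calls, 22 came with no library term. The count of genes called for members against comparison cells was 713 with no library term (483 higher, 230 lower) and 1360 to 1734 with a library left out; its split of 1156 higher and 812 lower became 1090 and 1106 with no filter, where 20545 genes were tested. The count for KO against WT among members was 151 with DESeq2, 668 with no filter, 140 for the top 1% and 1035 for the top 5%, and 424 to 509 with a library left out. The count for the genotype difference of the response was 16 with DESeq2, 20 against depth-matched cells, 33 with members chosen on thinned cells, 151 for the top 5%, 40 with the highest doublet scores removed, 25 with cells of other types removed, and 69 to 99 with a library left out (99 without WT replicate 2). Over all kept cells 1874 to 2431 genes were called with a library left out (1874, 1958 and 1934 without KO 1, KO 2 and WT 1). The difference in the share of cells with 3 or more of the 6 genes was 0.274 percentage points for 2 or more and 0.0142 for 4 or more, -0.264 not thinned, and -0.111 to 0.0748 with a library left out. KO and WT share replicate numbers. Same-numbered libraries did not deviate together (correlation -0.0328 over members, 0.0884 over all kept cells), and the numbers were not used as pairs in the main fits. Whether they mark a shared batch cannot be settled with 2 libraries per genotype. With the number as a replicate block 285 genes were called between KO and WT members, 82 for the response difference and 3419 over all kept cells. Each genotype has 2 libraries, and the depth of the members' sums leaves genes below a few CPM unresolved.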

Other observations

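The reporter transcripts were read beside the members' other genes. tdTomato, which the reporter makes before recombination, stood at 11.7 and 27.2 CPM in KO members and 0 and 0 CPM in WT members, against 8.42 and 5.51 CPM in KO and 0 and 0.2001 CPM in WT comparison cells. The KO members' tdTomato came from 18 and 36 UMIs, of which 1 member held 55.6% and 47.2%, and 6.02% and 8.82% of KO members had a UMI, against 2.56% and 1.46% of KO comparison cells. Against depth-matched comparison cells the difference between members and comparison cells was not called (log2 0.98, adjusted p = 0.0765, edgeR). eGFP, made after recombination, stood at 7471 and 8529 CPM in KO members and 6237 and 6106 CPM in WT members, against 7818 and 7620.1 CPM in KO and 5557 and 5775 CPM in WT comparison cells (log2 0.09, SE 0.04, adjusted p = 0.114), and was called against depth-matched cells (log2 0.16, adjusted p = 0.0119).

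Mki67, a marker of cycling cells, had 21 and 0 UMIs in KO and 0 and 0 in WT members, against 0 and 0 in KO and 0 and 58 in WT comparison cells, and 1 cell of KO 1 held 95.2% of the members' UMIs. The cell cycle list given above had 5 of 12 genes higher. Cyclin D1, Ccnd1, which acts at entry into the cell cycle, rose in members (log2 2.06, SE 0.48, adjusted p = 0.00513, edgeR), on 10 and 9 UMIs in KO and 3 and 1 in WT members.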
